A study of Mus musculus with 24 samples.

Results

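The 10 genes described here act in intracellular and secreted fat breakdown, and were followed through the livers of female mice on 3 diets: the patatin-like genes Pnpla2, Pnpla3, Pnpla5, Pnpla7 and Pnpla8, and Abhd5, Lipe, Mgll, Lipc and Lipa. They were taken by symbol from the deposited read counts, which held 10 of 10 among 55335 annotated genes, and all 10 passed the filter on low counts. The livers came from wild-type B6129SF2/J mice (WT) and from 3xTg-AD mice, a model of Alzheimer's disease that carries mutant human amyloid precursor protein and tau transgenes under the neuronal Thy1 promoter. A difference between these lines therefore cannot be told apart from any other difference in their genomes. From 3 months of age the mice ate 1 of 3 diets for 6 months, with 4 livers in each of the 6 groups. The control diet gave 70% carbohydrate, 20% long-chain triglyceride and 10% protein at 4.1 kcal/g. The medium-chain diet (MCT) had the same carbohydrate, protein and energy with 10% long-chain and 10% medium-chain triglyceride, and the ketogenic diet (KD) had no carbohydrate, 90% long-chain triglyceride and 10% protein at 6.7 kcal/g.

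Stored triglyceride is taken apart in steps. ATGL, the product of Pnpla2, removes the first fatty acid at the surface of the lipid droplet and needs the coactivator encoded by Abhd5. Hormone-sensitive lipase (Lipe) acts mainly on the resulting diglyceride, and monoglyceride lipase (Mgll) releases the last fatty acid. Pnpla3 and Pnpla5 encode droplet-associated relatives of ATGL, and Pnpla3 is a textbook target of the lipogenic factors SREBP-1c and ChREBP, which respond to insulin and carbohydrate. Pnpla7 and Pnpla8 act on phospholipids rather than on stored fat. Hepatic lipase (Lipc) is secreted and works on lipoproteins in the liver sinusoids, and lysosomal acid lipase (Lipa) breaks down fat and cholesteryl ester delivered to lysosomes.

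Each library held between 12009432 and 20108831 reads on genes, and levels are given as CPM, reads scaled to library size, with library sizes adjusted by the trimmed mean of M-values (TMM). All 8 hepatocyte markers were found in every group, with summed levels of 83321 to 193848 CPM per library. Exocrine pancreas markers summed to more than 100 CPM in 6 libraries (WT KD replicates 1, 2 and 4, WT MCT replicate 3, 3xTg-AD MCT replicates 3 and 4). Skeletal muscle markers passed 100 CPM before the TMM adjustment in 6 as well (WT KD replicate 4, WT MCT replicates 3 and 4, 3xTg-AD KD replicate 4, 3xTg-AD MCT replicates 1 and 4). Neutrophil markers reached 141 CPM within the 3xTg-AD KD group, against at most 38.5 CPM elsewhere. Results that rest on these libraries are given with and without them.

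On GRCm38 the other genes lie at chr2:24976033-25054057 (Pnpla7, plus strand), chr6:88724412-88828360 (Mgll, plus), chr7:25379527-25398710 (Lipe, minus), chr7:141455198-141460743 (Pnpla2, plus), chr9:70798128-70952226 (Lipc, minus), chr9:122351608-122381524 (Abhd5, plus), chr12:44221370-44322532 (Pnpla8, plus) and chr19:34492318-34527474 (Lipa, minus). Pnpla2, Pnpla5 and Lipa overlap no other annotated gene. The authors' table is labelled as stranded, and Lipe and Abhd5 overlap only genes on the opposite strand. Mgll, Lipc, Pnpla3, Pnpla7 and Pnpla8 overlap small RNAs, noncoding transcripts or pseudogenes on their own strand, so a share of their reads is uncertain.

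Per kb of exon, which allows levels of different genes to be compared, the median over all 24 livers was highest for Lipc at 94.3 CPM per kb. Lipa at 49.8 and Mgll at 45.5 CPM per kb followed, with overlapping ranges over the livers. Pnpla8 stood at 14.9, Pnpla2 at 10.5, Pnpla7 at 7.60 and Abhd5 at 5.10 CPM per kb, and the ranges of these neighbours also overlapped. Lipe at 1.16, Pnpla3 at 1.09 and Pnpla5 at 0.131 CPM per kb were the lowest. Lipe and Pnpla3 were close in their medians but not in their spread: Lipe stayed between 0.865 and 2.15 CPM per kb, while Pnpla3 ran from 0 to 9.92. The least variable was Lipa, whose highest CPM was 1.71 times its lowest.

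**Figure D1:**
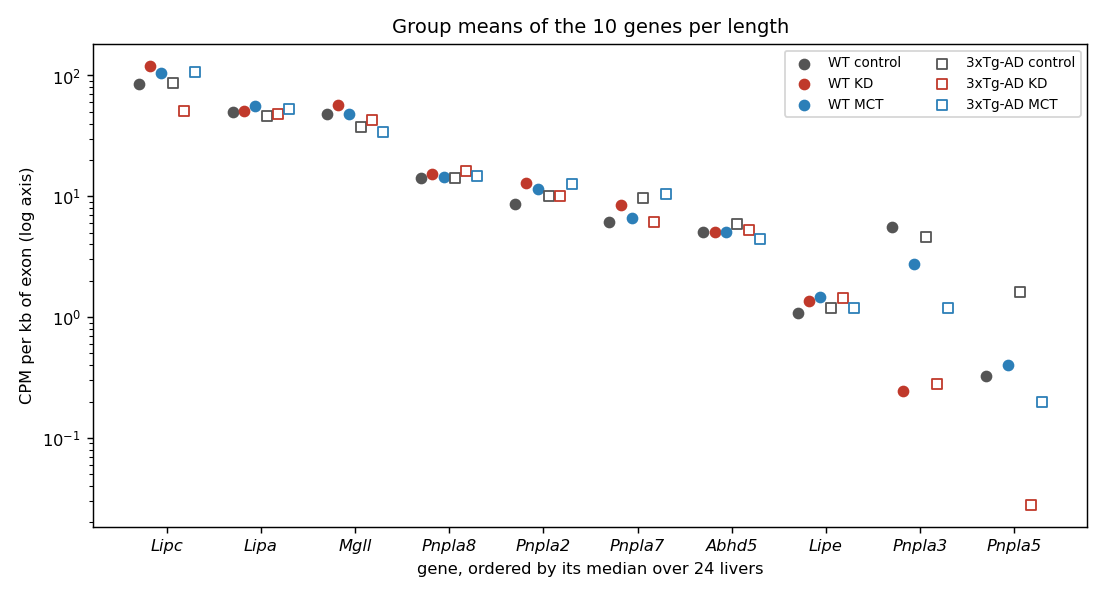
Group mean level of each of the 10 genes in CPM per kb of exon on a log axis, with genes ordered by their median over 24 livers. Filled circles are WT and open squares 3xTg-AD groups, coloured by diet, and the mean of 0 for Pnpla5 in WT on KD cannot be drawn. Pnpla3 and Pnpla5 spread furthest between diets.

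The KD lowered Pnpla3 in both genotypes and Pnpla5 in 3xTg-AD mice, and Pnpla5 reads were absent from WT livers on the KD. Lipc fell on the KD in 3xTg-AD mice. By edgeR's quasi-likelihood test with Benjamini-Hochberg adjustment over 13281 genes, at adjusted p under 0.05, 1 of the 10 genes fell and 0 rose on the KD in WT mice, where 0.648% of all genes passed. In 3xTg-AD mice 3 fell and 0 rose, where 5.39% of all genes passed. For the mean of both genotypes 2 fell (Pnpla3 and Pnpla5) and 0 rose, where 3.61% of all genes passed. The median log2 change of the 10 genes was 0.18 in WT and −0.10 in 3xTg-AD mice, against medians near zero over all genes. The WT median is the same with Pnpla5 set to its floor value given below. In WT mice 3 of the 10 genes had KD and control groups that did not overlap (Pnpla3, Pnpla5 and Lipc), against 7.24% of all genes. In 3xTg-AD mice 4 did not (Pnpla3, Pnpla5, Pnpla7 and Lipc), against 12.3% of all genes.

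**Figure D2:**
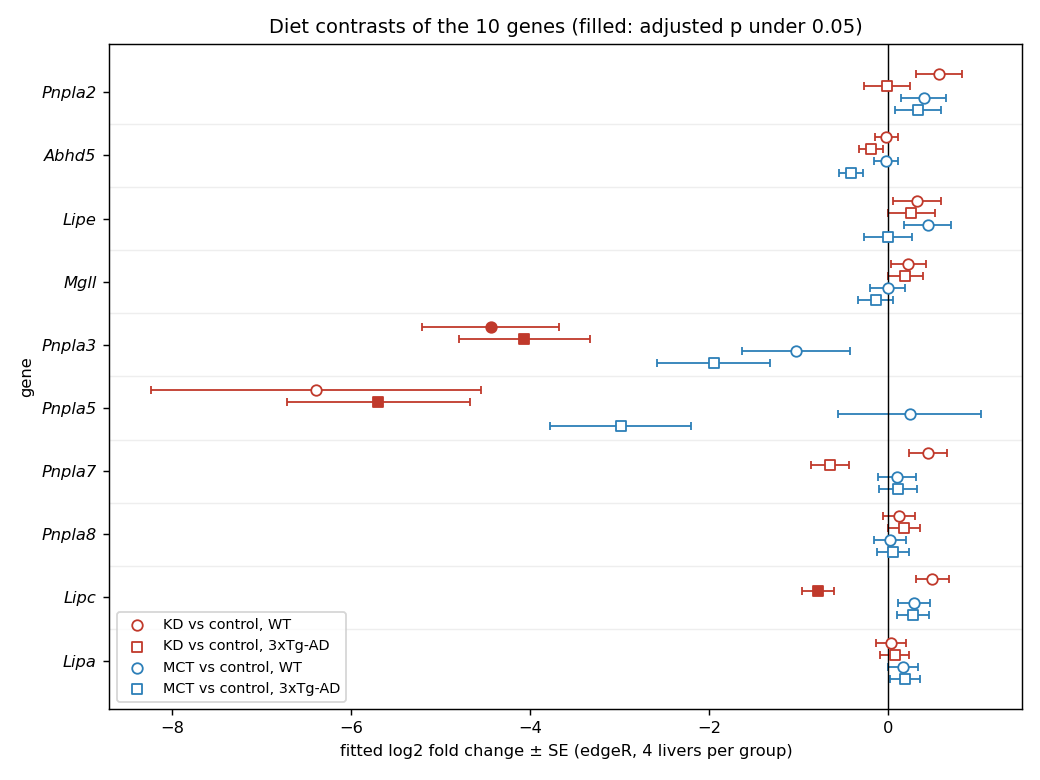
Fitted log2 fold change ± SE (4 livers per group) of each gene for the KD and the MCT diet against the control diet, in WT (circles) and 3xTg-AD (squares), with filled symbols where the adjusted p was under 0.05. The value for Pnpla5 on the KD in WT, −6.39, comes from a group with 0 reads and is no measure of size. Filled symbols are Pnpla3 in both genotypes, and Pnpla5 and Lipc in 3xTg-AD mice, all on the KD.

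Pnpla3 and Pnpla5 lie near each other on chromosome 15 of GRCm38, Pnpla5 at 84112356 to 84123175 on the minus strand and Pnpla3 at 84167837 to 84187236 on the plus strand, 44661 bases apart with 1 annotated gene between them. Because these neighbours carry the largest KD changes of the 10 genes, the 250 bases before the RefSeq start site of each (GRCm38.p6) are shown 5′ to 3′, for Pnpla3 chr15:84167566-84167815 on the plus strand and for Pnpla5 chr15:84123176-84123425 on the minus strand. Capitals mark matches, on either strand, to the motifs searched.
Pnpla3: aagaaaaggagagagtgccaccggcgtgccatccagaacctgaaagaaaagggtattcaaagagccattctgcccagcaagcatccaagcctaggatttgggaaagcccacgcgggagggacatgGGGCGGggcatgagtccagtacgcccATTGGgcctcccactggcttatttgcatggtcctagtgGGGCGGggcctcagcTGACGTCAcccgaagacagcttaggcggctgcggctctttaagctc
Pnpla5: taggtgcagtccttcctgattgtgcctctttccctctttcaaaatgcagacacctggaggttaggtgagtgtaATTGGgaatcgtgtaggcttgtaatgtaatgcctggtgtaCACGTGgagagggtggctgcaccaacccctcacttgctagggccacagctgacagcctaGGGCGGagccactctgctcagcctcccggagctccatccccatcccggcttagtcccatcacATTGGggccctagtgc
The 7 motifs searched on both strands were the sterol response element (TCACNCCAC), the E-box (CACGTG), the CCAAT box (CCAAT), the GC box (GGGCGG), a forkhead motif (TGTTTAC), the cyclic AMP response element (TGACGTCA) and the DR1 repeat. In these 2 windows no match overlapped another motif. The Pnpla3 window held 1 cyclic AMP response element, at position −46 from the start site, a motif found in 1.55% of 32851 promoter windows of the same length. It also held 1 CCAAT box at −99 and 2 GC boxes, which occur in 33.8% and 32.7% of windows. The Pnpla5 window held 1 E-box at −137, present in 6.02% of windows, with 2 CCAAT boxes and 1 GC box. E-boxes stood in windows of 4 of the 10 genes (Pnpla5, Pnpla7, Lipe and Mgll), the cyclic AMP response element in 1 and the sterol response element in 0, against 1.05% of all windows. A match describes letters in the window and nothing about binding.

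Pnpla3, a droplet protein linked to fatty liver, was measured at 3.20, 4.98, 10.9 and 15.3 CPM in the 4 WT livers on the control diet. On the KD the WT livers had 0.0913, 0.187, 0.806 and 0.431 CPM. Every WT KD liver lay below every WT control liver. The fitted log2 change was −4.44 ± 0.77 (SE, adjusted p = 0.0119), and summed over the group 19 reads stood against 504, a level 23.1-fold lower (95% exact Poisson interval 14.6 to 38.6, counting error only). In these bulk samples fewer cells of a type and less RNA per cell cannot be told apart. Without the 6 libraries with pancreas markers, which leaves 1 WT KD liver, the log2 change was −3.41 with an adjusted p of 0.705.

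In 3xTg-AD mice Pnpla3 was at 1.45, 7.76, 5.24 and 14 CPM on the control diet. On the KD it was at 0.839, 0, 0.377 and 0.503 CPM, and again the groups did not overlap. The log2 change was −4.07 ± 0.73 (edgeR, adjusted p = 0.00241), or 18.1-fold by summed reads (28 against 388, interval 12.4 to 27.7). Over both genotypes Pnpla3 fell by 4.25 ± 0.53 on the log2 scale (edgeR, adjusted p = 2.97e-05), and 8 of 8 KD livers lay below every control liver of the same genotype. The difference between the genotypes in this response was 0.37 ± 1.09 (edgeR, adjusted p = 0.915), so the data do not resolve whether the genotypes differ. Without 3xTg-AD KD replicates 2 and 3, the livers with most neutrophil transcripts, the 3xTg-AD value was −3.41 with an adjusted p of 0.0888.

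On the MCT diet Pnpla3 lay between these levels. The WT livers had 5.66, 3.63, 6.52 and 1.17 CPM, within reach of the control group, with a log2 difference of −1.03 ± 0.60 (edgeR, adjusted p = 0.865). The 3xTg-AD livers had 1.92, 2.91, 1.34 and 1.22 CPM, of which all but the first 2 lay below the lowest control liver, with a difference of −1.95 ± 0.63 (unadjusted p = 0.0055, edgeR adjusted p = 0.548). The KD livers lay below every MCT liver in each genotype, at −3.41 in WT and −2.12 in 3xTg-AD, but neither passed (edgeR, adjusted p = 0.0724 and 0.0824). In these 2 comparisons the groups of 3.64% and 12.9% of all genes did not overlap, and those of 2 and 4 of the 10. The control diet and the MCT diet gave the same 70% carbohydrate, and the KD none. The KD also gave 90% long-chain triglyceride, against 20% and 10%, and 6.7 against 4.1 kcal/g. The part of each of these cannot be told apart here.

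Pnpla5, a relative that acts on droplets and has been tied to autophagy, was the least abundant of the 10. The WT control livers had 0.156, 0.338, 0.344 and 2.00 CPM, 43 reads in all. The WT KD livers had 0 reads in 4 of 4 libraries. Against a floor of 3 counts over the group the level was 12.5-fold lower. The lower limit of the exact Poisson interval was 9.71-fold (counting error only). Of the 43 control reads, 32 came from WT control replicate 4. The test did not pass in WT (edgeR, adjusted p = 0.114), whereas DESeq2 gave an adjusted p of 0.00425. Against the MCT livers, at 0.981, 0.296, 1.96 and 0.274 CPM, the WT KD level was 14.1-fold lower by the same floor. The lower limit of the interval against the MCT livers was 11.0-fold.

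In 3xTg-AD mice Pnpla5 was at 0.427, 3.35, 1.88 and 8.27 CPM on the control diet, the highest of the 6 groups. On the KD it was at 0, 0.180, 0 and 0.0629 CPM, which is 4 reads against 192. Each KD liver was below each control liver, with a log2 change of −5.70 ± 1.02 (edgeR, adjusted p = 0.0023) and a 62.8-fold lower summed level (interval 24.1 to 233). The mean of both genotypes was −6.05 ± 0.98 (edgeR, adjusted p = 0.000651), a value that includes the WT group at 0 and gives no size. That adjusted p became 0.0582 without the pancreas-marked libraries, and the 3xTg-AD one 0.0697 without KD replicates 2 and 3.

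The MCT livers of 3xTg-AD mice held 0.251, 0.775, 0.447 and 0.264 CPM of Pnpla5. Of these only the 0.775 and 0.447 CPM livers reached into the control range, and the log2 difference was −2.99 ± 0.79 (unadjusted p = 0.000973, edgeR adjusted p = 0.452). In WT mice the same comparison gave 0.25 ± 0.80, and the difference between the genotypes in the MCT response was −3.23 ± 1.13 (unadjusted p = 0.00876) and did not pass. On the control diet Pnpla5 was higher in 3xTg-AD than in WT livers by 2.23 ± 0.74, with overlapping groups (edgeR, adjusted p = 0.145, and 0.0315 without WT control replicate 4, the highest of its group).

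**Figure D3:**
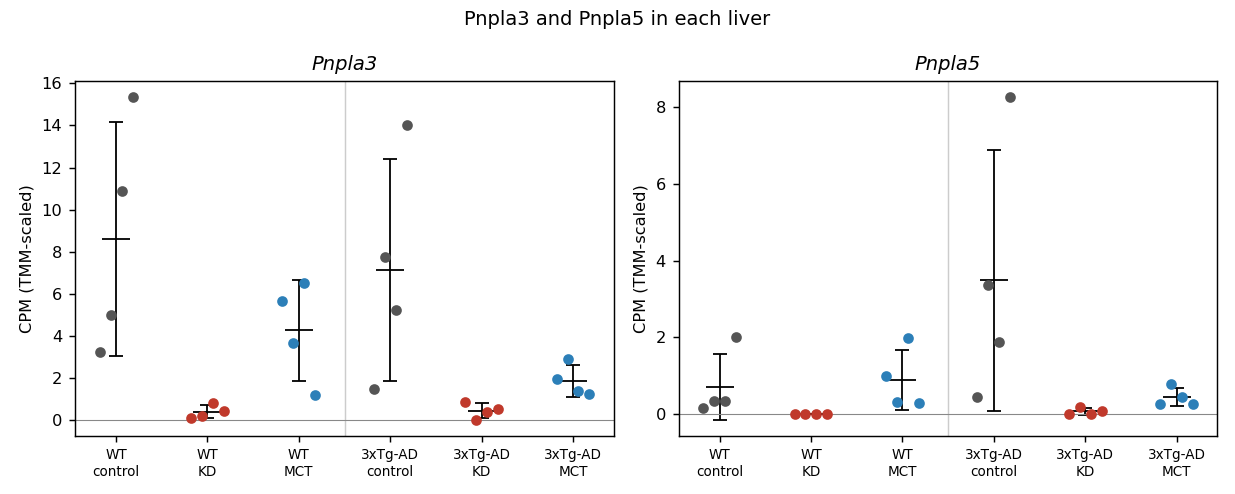
TMM-scaled CPM of Pnpla3 and Pnpla5 in each of the 24 livers (points) by genotype and diet, with bars for the mean ± SD of 4 livers. The KD livers lie between 0 and 0.839 CPM for Pnpla3 and between 0 and 0.180 CPM for Pnpla5, below every control liver of their genotype.

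Pnpla3 and Pnpla5 varied together over the 24 livers, with a Pearson correlation of log2 CPM of 0.80, which includes the diet effect that they share. The genes with the pattern most like Pnpla3 were Elovl6 (r = 0.88) and Fasn (0.86), a chain elongase and the fatty acid synthase, and Fndc4 (0.85). For Pnpla5 they were Chrna4 (0.91), Elovl6 (0.91) and Acly (0.87), the last the enzyme that makes cytosolic acetyl-CoA. These are descriptions over the same libraries and carry no test. Samm50, the next gene beyond Pnpla3 and chosen after its values were seen, encodes a mitochondrial outer membrane assembly protein. It was at 91.5 ± 12.1 CPM on the control diet and 55.0 ± 10.2 on the KD in 3xTg-AD mice (SD, n = 4), a log2 change of −0.73 ± 0.16 (edgeR, adjusted p = 0.00934), and at −0.26 ± 0.16 in WT mice (adjusted p = 0.536).

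None of the genes of the core cascade (Pnpla2, Abhd5, Lipe and Mgll) passed a comparison between diets with TMM scaling. With library-size scaling alone, Abhd5 and Mgll were called higher on the KD than on the MCT diet in 3xTg-AD mice (values beside those of Lipc). Pnpla2, the gene of ATGL, had 31.2, 24.5, 27.8 and 21.3 CPM in WT control livers and 23.4, 36.5, 38.7 and 57.6 CPM on the KD. The groups overlapped through KD replicate 1, and the log2 difference was 0.58 ± 0.25 (edgeR, adjusted p = 0.352). In 3xTg-AD mice it was at 29.4, 35.3, 29.2 and 27.2 CPM on the control diet and 32.4, 19.5, 32.2 and 36.5 CPM on the KD, a difference of −0.01 ± 0.25. On the MCT diet it ranged from 19.2 to 46.3 CPM in WT and from 29.9 to 47.0 CPM in 3xTg-AD livers, differences of 0.40 ± 0.25 and 0.34 ± 0.25 that did not pass.

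Abhd5, the ATGL coactivator, was the steadiest of the cascade in WT mice, at 28.5 to 32.3 CPM on the control diet, 26.3 to 31.7 on the KD and 26.6 to 32.5 on the MCT diet. In 3xTg-AD mice the control livers had 30.9, 29.8, 32.5 and 48.3 CPM and the MCT livers 26.8, 27.2, 24.5 and 28.0. The MCT livers all lay below the controls, by 0.41 ± 0.13 on the log2 scale (unadjusted p = 0.00482, edgeR adjusted p = 0.548). Of the genes in the 3xTg-AD MCT comparison 3.32% had groups that did not overlap, and 1 of the 10 lipases did.

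Lipe, the gene of hormone-sensitive lipase, was low in each group, from 5.09 to 12.6 CPM. On the control diet the WT livers had 6.09, 6.16, 6.27 and 6.80 CPM, the tightest group. The KD livers had 7.58, 6.44, 5.16 and 12.6 CPM in WT and 6.85, 7.67, 8.38 and 10.9 CPM in 3xTg-AD mice, each with 1 liver above the rest. The MCT livers had 7.17, 5.63, 12.3 and 9.47 CPM in WT and 5.09, 6.07, 6.34 and 10.7 CPM in 3xTg-AD mice. The 5 livers above 9 CPM are 5 of the 6 marked by skeletal muscle, with summed muscle markers of 157, 131, 109, 155 and 264 CPM. The sixth, 3xTg-AD MCT replicate 1 at 153 CPM of muscle markers, had the lowest Lipe of all, 5.09 CPM. The 8 adipocyte markers of those 5 livers summed to 21.7, 47.4, 31.7, 31.7 and 68.8 CPM, against 5.49 to 7.85 in WT control livers, where 2 of the 8 were at 0 in the whole group. Adipocyte markers were as high in 4 livers with Lipe under 9 CPM, at 68.8 CPM in 3xTg-AD MCT replicate 3 (Lipe 6.34 CPM), 28.1 in MCT replicate 1, 26.5 in KD replicate 3 (Lipe 8.38) and 24.7 in control replicate 4 (Lipe 8.06). The part of these tissues in the level of Lipe was not tested. The WT log2 differences on the KD and the MCT diet, 0.33 ± 0.27 and 0.45 ± 0.26, were both 0.01 without the muscle-marked libraries.

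Mgll, the gene of monoglyceride lipase, was lower in 3xTg-AD than in WT mice over the 3 diets. WT livers had 265, 221, 275 and 216 CPM on the control diet, 269, 310, 283 and 285 on the KD and 177, 255, 305 and 240 on the MCT diet. 3xTg-AD livers had 178, 161, 195 and 222 CPM on the control diet, 247, 173, 191 and 256 on the KD and 158, 161, 113 and 257 on the MCT diet. The genotypes did not overlap on the KD and overlapped on the other diets by 1 or more livers. On the KD the genotypes did not overlap for 13.7% of all genes and for 2 of the 10. The mean difference over the diets was −0.42 ± 0.11 (log2, edgeR, adjusted p = 0.0171). Of the 10 genes, 2 were lower in 3xTg-AD mice (Mgll and Lipc) and 0 higher over the 3 diets, where 9.19% of all genes passed. Both calls were lost with scaling by library size alone (edgeR, adjusted p = 0.118 for Mgll and 0.101 for Lipc), where the median of all genes stood at 0.13 and the 1 gene called was Pnpla7, higher at 0.42 (edgeR, adjusted p = 0.0434). Both were also lost without 3xTg-AD KD replicates 2 and 3 (edgeR, adjusted p = 0.0921 for Mgll and 0.0802 for Lipc). The patterns most like Mgll were those of Atp9a (r = 0.85), Tmed4 (0.84) and Chrna2 (0.84).

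**Figure D4:**
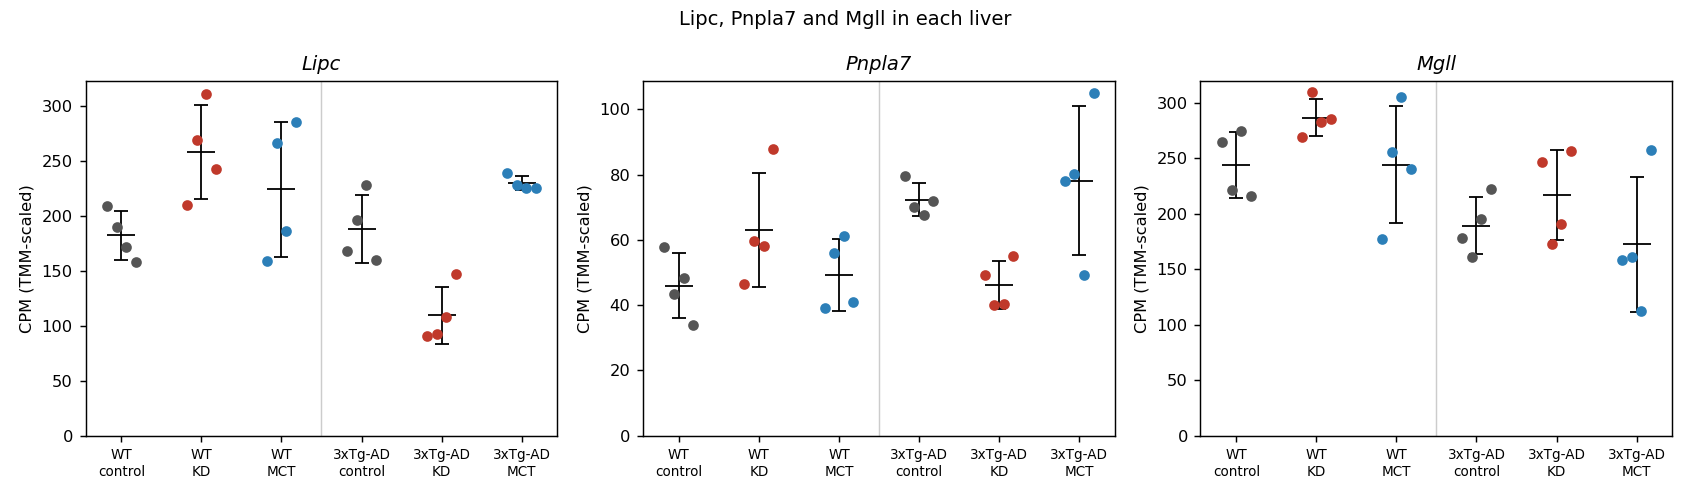
TMM-scaled CPM of Lipc, Pnpla7 and Mgll in each of the 24 livers (points) by genotype and diet, with bars for the mean ± SD of 4 livers. Lipc in 3xTg-AD livers on the KD, 91.0 to 147 CPM, lies below every other liver.

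Lipc, hepatic lipase, fell on the KD in 3xTg-AD mice and had a higher mean on the KD in WT mice, where the test did not pass. WT livers had 209, 190, 171 and 158 CPM on the control diet and 210, 269, 311 and 242 CPM on the KD. These groups did not overlap, with a log2 difference of 0.50 ± 0.18 that did not pass (unadjusted p = 0.0109, edgeR adjusted p = 0.223). Groups of 7.24% of all genes did not overlap in this comparison. 3xTg-AD livers had 168, 196, 228 and 160 CPM on the control diet and 91.0, 92.1, 108 and 147 CPM on the KD, again without overlap. There Lipc fell by 0.78 ± 0.18 on the log2 scale (edgeR, adjusted p = 0.014), and groups of 12.3% of all genes did not overlap.

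The difference between the genotypes in the KD response of Lipc was −1.28 ± 0.26, unadjusted p = 4.84e-05 and edgeR adjusted p = 0.0535. Of the 10 genes, 0 passed in that test, where 0.00753% of all genes passed. At an unadjusted p under 0.05 stood 2 of the 10 (Lipc and Pnpla7) and 1939 of all genes. DESeq2 called 2 of the 10, and more genes in all than edgeR did. Lipc passed the test of this difference in 6 of 26 other settings, with adjusted p from 0.00105 to 0.294. On the KD, 3xTg-AD livers were below WT livers by 1.23 ± 0.18 (edgeR, adjusted p = 0.000215), and Lipc was the 1 gene of 10 to pass there, where 8.49% of all genes passed. This call held in 18 of 18 other settings, with log2 values from −1.51 to −0.80. With library-size scaling, which put the median of all genes at 0.43 in this comparison, Pnpla8, Abhd5 and Lipa were also called, higher in 3xTg-AD mice at 0.51, 0.47 and 0.36 (edgeR, adjusted p = 0.0304, 0.0338 and 0.0416), so the split was 3 higher and 1 lower.

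On the MCT diet Lipc was at 159, 267, 186 and 285 CPM in WT and 239, 228, 226 and 225 CPM in 3xTg-AD livers. In 3xTg-AD mice the KD livers were below all MCT livers, by 1.07 ± 0.18 on the log2 scale (edgeR, adjusted p = 0.00144). In that comparison 2 of the 10 genes were lower on the KD (Lipc and Pnpla7) and 0 higher, where 8.02% of all genes passed. With library-size scaling the split was 3 higher and 1 lower, with the median of all genes again at 0.43. Lipc remained lower at −0.63 (edgeR, adjusted p = 0.0115), Pnpla7 was at −0.34 and not called, and Abhd5, Mgll and Pnpla8 were higher at 0.65, 0.75 and 0.55 (edgeR, adjusted p = 0.00673, 0.0114 and 0.0221). The same 3 genes were at 0.22, 0.33 and 0.12 with TMM scaling. Over the 3 diets Lipc was lower in 3xTg-AD than in WT mice by 0.38 ± 0.10 (edgeR, adjusted p = 0.0192), a call lost in the same 2 settings as that of Mgll, while on the control and MCT diets the differences were 0.05 and 0.04 ± 0.18.

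Hepatocyte markers were lower in the same group. All 8 were detected, and they summed to 83321 to 107903 CPM in 3xTg-AD livers on the KD and 121382 to 193848 CPM on the control diet, without overlap. Kupffer cell and macrophage markers summed to 651 to 997 against 458 to 663 CPM and neutrophil markers to 14.3 to 141 against 11.0 to 15.5, each overlapping at 1 KD liver. Stellate markers, at 460 to 561 against 406 to 527 CPM, and endothelial markers, at 389 to 449 against 371 to 447, overlapped widely. These overlaps hold with TMM scaling only. With library-size scaling hepatocyte markers stayed lower, at 103716 to 128710 against 134468 to 188094 CPM. Kupffer cell and macrophage markers (815 to 1189 against 442 to 735 CPM) and neutrophil markers (17.953 to 168 against 11.7 to 15.4) were then higher without overlap. So were stellate markers (576 to 669 against 394 to 509) and endothelial markers (464 to 562 against 360 to 461). The part of these cell types in the fall of Lipc was not tested. The genes most like Lipc were Eef1d (r = 0.88), Habp2 (0.88) and Ahsg (0.86), and Ahsg, fetuin-A, is 1 of the 8 hepatocyte markers. The KD call for Lipc in 3xTg-AD mice was lost without control replicate 3, KD replicate 1 or KD replicate 2, and without both KD replicates 2 and 3 (−0.67, edgeR adjusted p = 0.243). It was also lost with scaling by library size (−0.47, edgeR adjusted p = 0.0776), where the median of all genes moved by 0.31.

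Pnpla7, a lysophospholipase of the endoplasmic reticulum and lipid droplets, was lower on the KD than on the MCT diet in 3xTg-AD mice. WT livers had 57.9, 43.6, 48.4 and 34.1 CPM on the control diet and 46.6, 59.5, 58.0 and 87.7 on the KD. 3xTg-AD livers had 79.5, 70.2, 67.7 and 71.9 CPM on the control diet and 49.2, 40.0, 40.3 and 55.1 on the KD. The WT groups overlapped and the 3xTg-AD groups did not, in a comparison where 12.3% of all genes did not overlap. The log2 differences were 0.45 ± 0.21 and −0.65 ± 0.21 (edgeR, adjusted p = 0.39 and 0.0811), and the difference between them −1.10 ± 0.30 (unadjusted p = 0.00132, adjusted p = 0.11). The 3xTg-AD fall was called in 4 of 18 other settings: DESeq2, the compared groups alone, and without the pancreas-marked or the muscle-marked libraries. Its edgeR adjusted p was 0.0203 without the muscle-marked libraries and 0.307 with library-size scaling. DESeq2 also called the difference between the genotypes (adjusted p = 0.0295).

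Against the MCT diet, where 3xTg-AD livers had 78.2, 80.2, 49.1 and 105 CPM, Pnpla7 was lower on the KD by 0.76 ± 0.21 (edgeR, adjusted p = 0.0308). The groups overlapped through MCT replicate 3, and the call held in 8 of 18 other settings, with adjusted p up to 0.297. It was lost without any 1 of 3xTg-AD KD replicates 1, 2 and 3 or MCT replicates 1, 2 and 4. On the control diet Pnpla7 was higher in all 4 3xTg-AD livers than in any WT liver, by 0.65 ± 0.21 (edgeR, adjusted p = 0.139). The genotypes did not overlap there for 8.67% of all genes and for 1 of the 10. The patterns nearest to Pnpla7 were those of Eif2d (r = 0.85), Ly6e (0.79) and Myorg (0.79).

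Pnpla8, a calcium-independent phospholipase of mitochondria and peroxisomes, did not pass in any comparison with TMM scaling, and was called higher with library-size scaling for the KD against the MCT diet in 3xTg-AD mice and for 3xTg-AD against WT on the KD. Its group means ran from 200 ± 18.2 CPM (SD, n = 4) in WT control livers to 229 ± 34 in 3xTg-AD livers on the KD, with overlap in every comparison. The KD differences were 0.13 ± 0.18 in WT and 0.18 ± 0.18 in 3xTg-AD mice. Lipa, the lysosomal acid lipase, did not pass either with TMM scaling, with group means from 311 ± 13.7 CPM in 3xTg-AD control livers to 381 ± 37.7 in WT livers on the MCT diet. Its KD differences were 0.04 ± 0.17 and 0.08 ± 0.17, and its MCT differences 0.17 ± 0.17 and 0.19 ± 0.17.

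The MCT diet gave no call among the 10 genes. In WT mice 0 passed, where 0% of all genes passed by edgeR, and in 3xTg-AD mice 0 passed, where again 0% of all genes passed. At an unadjusted p under 0.05 these were 0 of 10 genes in WT and 3 of 10 in 3xTg-AD mice (Pnpla3, Pnpla5 and Abhd5, each lower), and 803 and 855 of all genes. DESeq2 called 0 of the 10 in each, with 16 and 17 genes in all. For the mean of both genotypes 0 passed, where 0.128% of all genes passed. At an unadjusted p under 0.05 stood 5 of 10 (Pnpla2 and Lipc higher, Pnpla3, Pnpla5 and Abhd5 lower) and 1325 of all genes. DESeq2 called 0 of the 10 there and 84 genes in all. For the difference between the genotypes in the MCT response 0 passed, where 0% of all genes passed, with 2 of 10 and 287 of all genes at an unadjusted p under 0.05 and 0 by DESeq2.

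A further set of 3 comparisons held no call. For the KD against the MCT diet in WT mice 0 of 10 passed, where 0.181% of all genes passed. At an unadjusted p under 0.05 stood 2 (Pnpla3 and Pnpla5) and 962 of all genes. DESeq2 called both, and 92 genes in all. For 3xTg-AD against WT on the control diet 0 passed, where 1.86% of all genes passed. There 2 (Pnpla5 and Pnpla7) and 1577 of all genes had an unadjusted p under 0.05. DESeq2 called 0 of the 10 and 385 genes in all. For 3xTg-AD against WT on the MCT diet 0 passed, where 1.74% of all genes passed. There 2 (Pnpla7 at 0.67 ± 0.21 and Mgll at −0.50 ± 0.20) and 1452 of all genes had an unadjusted p under 0.05. DESeq2 called 0 of the 10 and 309 genes in all. The 14 comparisons share groups, so their values are not independent.

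Among transcripts for proteins that hold back or shield ATGL, 4 rose on the KD, while Pnpla2 itself did not pass. Of 11 listed inhibitors and droplet-coat genes 10 were tested, and 4 rose and 0 fell for the mean of both genotypes, where 3.61% of all genes passed. The list median was 0.86 against near zero over all genes, and 2 of the 10 were below 0. Cidec, which enlarges droplets, rose by 3.45 ± 0.61 on the log2 scale (edgeR, adjusted p = 0.00156), and Plin4, a coat protein, by 2.35 ± 0.42. G0s2, the direct inhibitor of ATGL, rose by 1.65 ± 0.36 (edgeR, adjusted p = 0.00909), and Plin2, the main coat protein of hepatocyte droplets, by 1.02 ± 0.21.

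G0s2 was at 19.3, 29.0, 57.7 and 66.8 CPM in WT control livers and 123, 191, 136 and 164 CPM on the KD, without overlap. In 3xTg-AD mice it was at 25.2, 51.1, 56.8 and 40.4 CPM on the control diet and 62.2, 84.4, 183 and 149 CPM on the KD, again without overlap. Within each genotype neither G0s2 nor Plin2 passed (edgeR, adjusted p from 0.0668 to 0.0963), and 0 genes of the list passed in WT and 2 in 3xTg-AD mice (Plin4 and Cidec). Without the pancreas-marked libraries 0 of the list passed for the mean of both genotypes. The list was 4 up without 3xTg-AD KD replicates 2 and 3 and 5 up without the muscle-marked libraries.

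**Figure D5:**
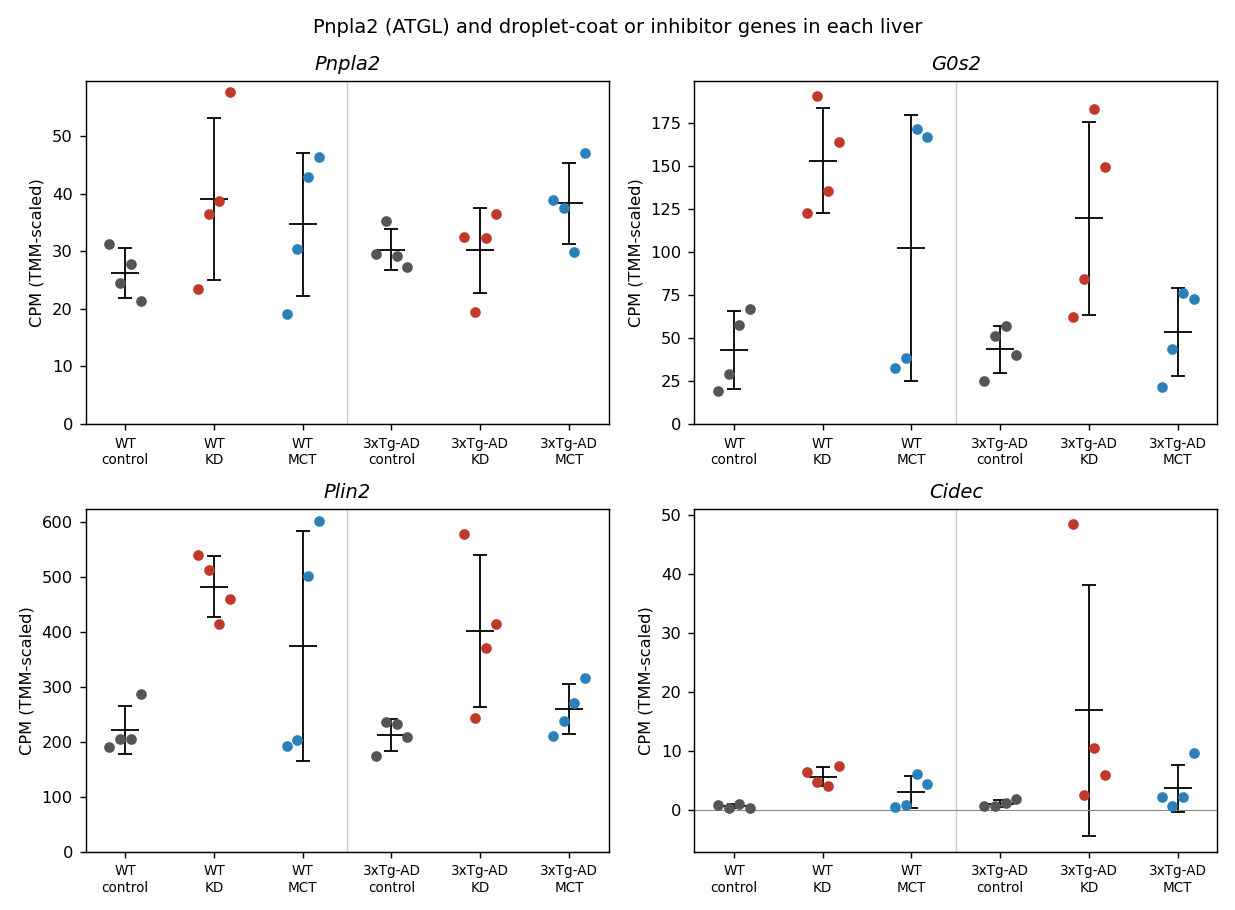
TMM-scaled CPM of Pnpla2 and of G0s2, Plin2 and Cidec in each of the 24 livers (points) by genotype and diet, with bars for the mean ± SD of 4 livers. Pnpla2 overlaps between the KD and control groups in both genotypes, while every KD liver exceeds every control liver of its genotype for G0s2, Plin2 and Cidec.

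Among 17 tested carboxylesterases and other neutral lipid hydrolases 1 rose and 3 fell for the mean of both genotypes (median −0.03). Nceh1, a cholesteryl ester hydrolase, rose by 0.71 ± 0.16 (edgeR, adjusted p = 0.0102), and the serum and hepatic esterase genes Ces1c, Ces2a and Ces2g were lower by 0.59, 0.63 and 0.55. Within genotypes, Nceh1 was the 1 gene of this list to pass in WT mice, at 1.02 ± 0.22 (edgeR, adjusted p = 0.0384), and 0 passed there with library-size scaling or without the pancreas-marked libraries (edgeR, adjusted p = 0.0846 and 0.377 for Nceh1). In 3xTg-AD mice 4 passed, all lower (Ces1c, Ces2a, Ces2g and, outside the naming rule, Ces2e), while scaling by library size alone gave 2 higher and 2 lower, and 0 passed without KD replicates 2 and 3. Hepatocyte markers were lower in the same 3xTg-AD KD group, as given with Lipc, and their part in these 4 genes was not tested. Carboxylesterases are a family of close copies, so reads may be split between them.

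Of 10 tested secreted lipases and their regulators 2 rose and 0 fell (median 0.06): Lipg, endothelial lipase, by 0.88 ± 0.22 and Lpl, lipoprotein lipase, by 1.04 ± 0.28 (edgeR, adjusted p = 0.0224 and 0.0422). Of 12 lysosomal genes that handle lipid with Lipa 0 passed for the mean of both genotypes (median −0.01), 0 had an unadjusted p under 0.05 and DESeq2 called 0. Of 6 transcription factors known to act on lipase genes 1 rose and 1 fell: Ppara, the fatty acid receptor, rose by 0.43 ± 0.09 (edgeR, adjusted p = 0.00488), and Mlxipl, which encodes ChREBP, fell by 0.81 ± 0.22 (edgeR, adjusted p = 0.0357). Srebf1, outside the naming rule, was at −0.83 ± 0.24 and did not pass (edgeR, adjusted p = 0.0595). With library-size scaling 1 transcription factor of the list rose and 0 fell, so the call for Mlxipl was lost. Without the pancreas-marked libraries 1 gene of the hydrolase list passed, which rose, and 0 of the secreted and transcription factor lists. Without 3xTg-AD KD replicates 2 and 3 those 3 lists held 2, 0 and 1.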

How the data were processed

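Liver RNA was sequenced from 24 female mice, and the authors deposited whole-number read counts per gene, not normalized, from polyA libraries. Trimmomatic, STAR and GRCm38 are named in the submitters' processing notes. The deposited table is labelled as stranded, its strand direction and any use of molecular identifiers being not given in the sources used here. Reads of genes that overlap on 1 strand were not separated. Entries that name no gene (21.5% to 30.1% per library) were left out.

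Genes were filtered with edgeR's filterByExpr, leaving 13281, and fitted in 1 quasi-likelihood model of all 24 libraries (edgeR 4.0.16, R 4.3.3, TMM factors 0.833 to 1.32, 18 residual degrees of freedom). SE is the log2 change divided by the root of F. The fit was tested on simulated data, with each gene given the spread typical of its level. Log2 changes of 2, 1, −1 and −2 were set in 50 genes each, of mean over 1 CPM, for the 3xTg-AD KD group. Of these, 100%, 52%, 60% and 98% passed in the right direction, and 5 unchanged genes passed. Pnpla5, with a lower mean, could not be among the changed genes. Genes that vary more than is typical of their level were not simulated, so these shares do not describe them. Exon lengths came from GENCODE M21, and promoters of 10 of 10 genes from RefSeq. The members, gene lists and motifs were chosen with earlier results of these data known. All 10 members are named, with up to 4 passing genes per list by smallest adjusted p for the mean KD effect, and the 3 genes most correlated with each passing member. Alternatives were RLE factors, library-size scaling, no filter, DESeq2 1.42.0, the compared groups alone, a replicate block, leaving out each library and leaving out sets of libraries. Marker sums use TMM-adjusted library sizes, and sets of libraries were chosen on unadjusted CPM. The older quasi-likelihood fit, leaving out muscle-marked libraries, and every alternative for the lists were added after seeing the data. The smallest chi-square per gene between libraries of a group was 27.3, and no pair was treated as 1 library.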

Additional observations from a re-analysis of the deposited data

Results flagged for a closer look

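Within groups of 4 livers, a liver was singled out where its gap to the nearest other exceeded the 95% critical value of Dixon's test, and 3 of 60 combinations of gene and group met this, where chance gives about 1 in 20. Pnpla5 in WT control replicate 4 was at 2.00 CPM, above 0.156 to 0.344 CPM in the other livers. Abhd5 in 3xTg-AD control replicate 4 was at 48.3 CPM, above 29.8 to 32.5 CPM. Abhd5 in WT KD replicate 2, 1 of the pancreas-marked libraries, was at 26.3 CPM, below 30.8 to 31.7 CPM.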

How the results depend on the processing

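Over 291 recomputed counts of passing members, 261 stayed within 1.5 times the reported count. Without the pancreas-marked libraries, which leaves 1 WT KD liver assumed to vary like the other groups, the count was 0 for the KD in WT, 1 for the KD over both genotypes and 1 for the genotypes on the control diet. Without 3xTg-AD KD replicates 2 and 3 it was 0 for the KD in 3xTg-AD, 1 for the KD against MCT in 3xTg-AD and 0 for the genotypes over the diets. Library-size scaling gave 4 for the KD against MCT in 3xTg-AD (3 higher, 1 lower), 4 for the genotypes on the KD (3 higher, 1 lower), 1 for the difference between the genotypes in the KD response (Lipc) and 1 for the genotypes over the diets (Pnpla7, higher, with Mgll and Lipc lost). It also turned Lipa between the genotypes on the KD from −0.08 to 0.36 (edgeR, adjusted p = 0.0416), where it put the median of all genes at 0.43. DESeq2 gave 2 for the KD in WT, 2 for the KD against MCT in WT and 2 for the difference in the KD response. The compared groups alone gave 1 for the KD against MCT in 3xTg-AD and 1 for the difference in the KD response, and so did leaving out the muscle-marked libraries, 1 and 1. No filter gave 1 for the KD against MCT in WT.

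Leaving out each library in turn gave 1 in every fit for the KD in WT, 2 to 3 for the KD in 3xTg-AD, 2 for the KD over both genotypes, 0 to 1 for the KD against MCT in WT, 1 to 2 for the same in 3xTg-AD, 0 to 1 for the genotypes on the control diet and on MCT, 1 on the KD, 2 over the diets, 0 to 1 for the difference in the KD response and 0 for the MCT diet against control and for the difference in the MCT response. All genes passing in those fits numbered 13 to 52 for the KD in WT, 271 to 903 in 3xTg-AD and 322 to 577 over both genotypes. They numbered 9 to 57 for the KD against MCT in WT and 499 to 1189 in 3xTg-AD. Between the genotypes they were 150 to 218 on the control diet, 155 to 227 on MCT and 514 to 1322 on the KD. Deviations of same-numbered libraries correlated from −0.51 to 0.44 (mean 0.05, 60 pairs) and of others from −0.45 to 0.46 (mean −0.02, 180 pairs). These ranges overlap widely, which cannot exclude a pairing by replicate number. With the replicate number as a block the counts were 1 for the KD in WT, 3 in 3xTg-AD, and 2 over both genotypes, as reported, and no other member count moved by over 1.5 times. Depth limits Pnpla5 most, which had 0 reads in 6 of 24 libraries. The cause of these changes was not tested.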
